A study of Homo sapiens with 51 samples.

Results

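Open chromatin was compared between day 4 and day 3 of BMP4 treatment in unedited (WT) H1 cells, an established human embryonic stem cell line. The measure was ATAC-seq, in which a transposase cuts accessible DNA, and each value is the number of reads in a 201-bp region. The comparison used 4 libraries, lettered a and b on each day, and every one of the 142087 regions counted under BMP4, of which 142083 had enough reads to test. The wider series held 51 libraries from 3 lines, named WT, KO and ΔATG (written DATG here), at day 0, under BMP4 and under a treatment named SMADi. All 30 libraries under BMP4, from the 3 lines on days 1 to 5, shared the estimate of spread. The cultures under BMP4 are labelled mesoderm and were treated alike in all 3 lines. Which gene was edited is not named in the labels, and they do not state how many clones or cultures each line stands for. The p-values therefore measure only the spread between these libraries, which may be technical.

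BMP4 is a secreted signal that binds type I and type II receptors, which phosphorylate SMAD1 and its close relatives. In stem cells of the primed state it is widely used to start mesoderm and extraembryonic fates, usually through WNT and Nodal signals that the cells then make themselves. These pathways switch on their own inhibitors, such as SMAD7 and BAMBI for BMP, LEFTY1 and LEFTY2 for Nodal and AXIN2 for WNT, so regions at those genes are common readouts of signalling. In bulk libraries a lower count cannot separate fewer cells with an open region from less opening in each cell.

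Promoter sequences of 4 genes are shown because the regions described below lie on them, or, for EGR1, beside them. Each is the 250 bases before a RefSeq start on GRCh38.p14, 5′ to 3′. EGR1 encodes an immediate early transcription factor, and capitals mark its 2 CArG boxes, the sequence bound by serum response factor. GPBAR1 (a bile acid receptor) had the largest rise among named regions on promoters, and none of the 12 motifs searched is marked in it. In TMEM106A, a membrane protein gene whose promoter also rose, capitals mark 1 AP-1 match (TGANTCA) and 2 GC boxes (GGGCGG). C1orf87 had the largest fall among named regions on promoters, and capitals mark 3 GC boxes and 1 CAAT box (CCAAT) on either strand.
EGR1, chr5:138465229-138465478, plus strand: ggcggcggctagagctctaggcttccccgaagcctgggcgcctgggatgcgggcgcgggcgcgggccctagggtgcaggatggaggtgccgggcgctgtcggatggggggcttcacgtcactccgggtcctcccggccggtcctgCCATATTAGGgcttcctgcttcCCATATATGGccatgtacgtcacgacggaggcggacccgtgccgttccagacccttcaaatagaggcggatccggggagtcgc
GPBAR1, chr2:218259246-218259495, plus strand: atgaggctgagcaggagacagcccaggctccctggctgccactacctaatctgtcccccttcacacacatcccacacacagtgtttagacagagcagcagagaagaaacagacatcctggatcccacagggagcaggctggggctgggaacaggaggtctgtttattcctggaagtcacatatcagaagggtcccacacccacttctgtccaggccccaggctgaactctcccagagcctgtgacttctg
TMEM106A, chr17:43211625-43211874, plus strand: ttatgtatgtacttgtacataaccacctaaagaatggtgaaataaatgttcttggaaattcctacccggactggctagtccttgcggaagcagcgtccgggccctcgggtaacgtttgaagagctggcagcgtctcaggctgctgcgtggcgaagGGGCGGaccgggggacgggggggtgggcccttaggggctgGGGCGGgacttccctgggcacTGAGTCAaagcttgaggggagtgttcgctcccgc
C1orf87, chr1:60073771-60074020, minus strand: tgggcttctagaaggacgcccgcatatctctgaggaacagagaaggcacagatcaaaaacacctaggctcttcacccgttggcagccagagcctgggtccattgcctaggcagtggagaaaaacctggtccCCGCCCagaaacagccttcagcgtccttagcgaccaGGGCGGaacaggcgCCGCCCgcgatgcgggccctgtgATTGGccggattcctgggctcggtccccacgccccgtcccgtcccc

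Between day 3 and day 4, 682 regions rose (0.48% of those tested) and 988 fell (0.695%), 1.18% in all, at a Benjamini-Hochberg adjusted p under 0.05 by edgeR's quasi-likelihood test. The median change over all regions was 0.005 on the log2 scale, and 424 called regions in each direction changed over 2-fold. In 1669 of the 1670 called regions the day 3 and day 4 libraries did not overlap, against 46.6% of all tested regions. Counts were also summed per gene, over the regions whose nearest annotated gene end lay within 50 kb. Of 30231 genes tested this way, 287 rose (0.949%) and 637 fell (2.11%). The 2 WT day 3 libraries held 13850448 and 8791353 counts, and those of day 4 held 6385054 and 6581447, so depth differed with the day. DESeq2, run on the same libraries, called far fewer, with 8 regions higher and 28 lower. With every library thinned to the shallowest, 360 regions rose and 600 fell. The calls also rest on all 4 libraries: without WT day 4 replicate a, 39 regions rose and 74 fell, and without WT day 4 replicate b the balance was reversed, with 200 higher and 131 lower. In simulated counts of this comparison on 20000 regions, the test found 53% of regions given a log2 change of 1 and 11.8% of those given 0.5, so small changes were mostly not detectable.

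The labelled mesoderm fate was compared with its defining markers. All 8 mesoderm markers (TBXT, MIXL1, EOMES, MESP1, TBX6, PDGFRA, HAND1 and FOXF1) had a tested region, with a summed level of 849 and 813 CPM (counts scaled to the size of the library) at day 3 and 754 and 711 at day 4. TBXT, the brachyury gene, had only 1 linked region at 2.52 and 2.73 CPM at day 3. Markers of undifferentiated cells summed to 358 and 378 CPM at day 3 and to 333 and 358 at day 4. Amnion or trophoblast markers summed to 380 and 390 CPM, then 353 and 341. Open chromatin near a marker is not its expression, so these sums do not give the share of a cell type.

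Several genes of the Nodal branch lost accessibility. Of 15 measured genes of the Nodal and Activin list, 4 fell and none rose, with a list median of -0.161 against 0.002 over all genes. Over all genes 0.949% rose and 2.11% fell, the shares that belong beside this and every list count below. NODAL, the ligand that patterns the primitive streak, had 93.6 and 93.2 CPM at day 3 and 57.3 and 60.0 CPM at day 4. Its log2 fold change was -0.67 ± 0.08 (SE), with an adjusted p of 7.62e-08. All 11 of its linked regions were lower at day 4, and 3 of them passed the test. The clearest lies within the gene at chr10:70440400-70440600, with 15.7 and 15.8 CPM at day 3 against 8.53 and 7.32 at day 4. LEFTY1, a secreted Nodal inhibitor, went from 49.5 and 51.1 CPM to 32.5 and 36.4, a log2 fold change of -0.54 ± 0.10. LEFTY2, its neighbour and close relative, went from 40.9 and 43.7 CPM to 29.2 and 31.3, a log2 fold change of -0.48 ± 0.10. A region 4348 bp outside LEFTY2 at chr1:225945568-225945768 fell by 1.33 ± 0.28 on the log2 scale. CER1, a secreted inhibitor of Nodal, BMP and WNT, had 1 linked region, at 12.4 and 16.9 CPM and then 9.52 and 9.07 CPM. In all 4 genes both day 4 libraries lay below both day 3 libraries. With 1 library left out at a time the NODAL gene sum kept its call, while its clearest region (adjusted p = 0.0704 without WT day 4 replicate b) and the LEFTY2 region (0.251 without WT day 4 replicate a) lost theirs. The highest adjusted p was 0.0678 for LEFTY1 and 0.102 for LEFTY2, both without WT day 4 replicate a, and 0.35 for CER1 without WT day 3 replicate b.

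GSC, a homeobox gene of the organizer that Nodal signalling induces, had one of the strongest falls at a single region. The region at chr14:94775513-94775713, 5400 bp outside GSC, had 9.64 and 10.8 CPM at day 3 and 2.90 and 3.74 CPM at day 4. The log2 fold change was -1.60 ± 0.23, with an adjusted p of 1.18e-05. The nearest gene end there is that of GSC-DT, a lncRNA divergent from GSC, which had 3 called regions of 10, all lower. None of the 8 regions linked to GSC itself passed the test. The same region stood at 4.67 and 5.71 CPM at day 1 and 11.4 and 12.5 at day 2, so it had opened before it closed.

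Of 20 measured BMP target genes 3 fell (SMAD7, ID3 and BAMBI) and none rose, with a median of -0.131. SMAD7, an inhibitory SMAD that blocks receptor signalling, had 188 and 193 CPM at day 3 and 140 and 136 at day 4, a log2 fold change of -0.47 ± 0.06 (adjusted p = 1.74e-06). Of its 21 linked regions 20 were lower, and the 4 that passed the test lay 703 to 2308 bp inside the gene's outermost annotated start. ID3, an inhibitor of helix-loop-helix factors and a direct BMP target, fell most at chr1:23558391-23558591 within the gene. That region had 16.0 and 14.7 CPM at day 3 and 6.92 and 4.98 at day 4, a log2 fold change of -1.38 ± 0.19. BAMBI, a decoy receptor without a kinase domain, fell at chr10:28678117-28678317 from 9.86 and 13.0 CPM to 3.86 and 4.05, a log2 fold change of -1.50 ± 0.22. For both regions the groups did not overlap, and the calls held with each library left out. Summed over all linked regions the changes were smaller, -0.28 ± 0.07 for ID3 and -0.30 ± 0.07 for BAMBI. These gene calls were lost without WT day 4 replicate b, with adjusted p-values of 0.293 and 0.131. ID1, another direct target, did not pass the test at -0.10 ± 0.07.

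Upstream in the same pathway, 2 of 12 receptor and SMAD genes fell. SMAD1, a signal carrier that BMP receptors phosphorylate, had 40.1 and 43.7 CPM at day 3 and 29.4 and 25.9 at day 4 over 4 linked regions, a log2 fold change of -0.59 ± 0.12. BMPR1B, a type I receptor, had 29.9 and 31.3 CPM and then 21.8 and 21.1 CPM, a log2 fold change of -0.51 ± 0.12. Without WT day 4 replicate b both calls were lost, with changes of -0.50 (adjusted p = 0.0987) for SMAD1 and -0.49 (0.146) for BMPR1B, and the BMPR1B call was lost without 3 of the 4 libraries in turn. None of 16 BMP ligands and secreted antagonists passed the test, and their median was -0.121.

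Some genes of the primitive streak and of its WNT and FGF signals fell. Of 26 streak and nascent mesoderm genes, 4 fell and none rose, with a median of -0.199, the lowest of the 26 lists. EOMES, a T-box factor of the streak, went from 134 and 142 CPM to 109 and 106, a log2 fold change of -0.36 ± 0.06 (adjusted p = 0.000413). WNT3, a ligand needed for streak formation, went from 205 and 214 CPM to 179 and 172. FOXA2 and DLL1 also fell, by 0.37 ± 0.10 and 0.25 ± 0.07 on the log2 scale. AXIN2, the feedback inhibitor induced by WNT, had 203 and 216 CPM at day 3 and 162 and 174 at day 4, a change of -0.31 ± 0.06, and was the one called gene of 18 WNT targets. MIXL1 and MESP1 stayed just outside the threshold at -0.41 ± 0.13 and -0.22 ± 0.07, with adjusted p-values of 0.057 and 0.0806. TBXT gave -0.63 ± 0.35. EOMES kept its call with each library left out, while the highest adjusted p without WT day 4 replicate a was 0.0553 for AXIN2 and 0.182 for FOXA2. Without WT day 4 replicate b it was 0.143 for WNT3 and 0.287 for DLL1.

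FGFR2, a receptor for fibroblast growth factors, lost accessibility in a cluster inside the gene. Of its 17 linked regions 5 fell, and 4 of these lie 17515 to 19142 bp from the start, between 121579216 and 121581043 on chromosome 10. The region at chr10:121579216-121579416 had 4.78 and 5.10 CPM at day 3 and 1.61 and 1.56 at day 4, a log2 fold change of -1.62 ± 0.32. The region over the start was at 31.1 and 35.1 CPM and then 30.9 and 30.2, and did not pass the test. Over all linked regions FGFR2 changed by -0.36 ± 0.06, with groups that did not overlap. This gene call held with each library left out, but not when regions were linked only within 10 kb of a gene end. The FGFR2 region of smallest p, at chr10:121580843-121581043, lost its call with DESeq2 and without WT day 4 replicate a, where its change was -0.97. The other regions of the cluster were not rerun in this way. SPRY1, a feedback inhibitor of the same receptors, fell by 0.27 ± 0.08, a call that was lost without WT day 3 replicate b (adjusted p = 0.385). These were the 2 called genes among 20 of the FGF and ERK list.

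Some members of the Notch and Hippo pathways fell in small steps. Of 19 measured Notch genes 3 fell (15.8%) and none rose, against 2.11% and 0.949% of all genes. HES1, a repressor that Notch switches on, fell at chr3:194134803-194135003, 1145 bp outside the gene, from 24.6 and 25.1 CPM to 14.8 and 12.8, a log2 fold change of -0.85 ± 0.15. Its region over the start stood at 32.5 and 30.1 CPM and then 31.9 and 30.4. JAG1, a Notch ligand, changed by -0.28 ± 0.06 and DLL1, another ligand, by -0.25 ± 0.07. Of 19 Hippo and TEAD target genes 3 fell and none rose. TEAD1, the DNA-binding partner of YAP, had 142 and 143 CPM at day 3 and 109 and 110 at day 4, a change of -0.38 ± 0.07 (adjusted p = 0.000342), although none of its 14 regions passed alone. AMOTL2, which restrains YAP, changed by -0.24 ± 0.05 and VGLL3, a TEAD cofactor, by -0.42 ± 0.10. With 1 library left out TEAD1 and the HES1 region kept their calls, whereas the adjusted p reached 0.126 for AMOTL2 and 0.0674 for JAG1 without WT day 3 replicate b, and 0.162 for VGLL3 without WT day 3 replicate a.

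Pluripotency genes did not move as a block. Of 27 measured genes 3 fell, namely NANOG, ZFP42 and OTX2, and the list median was -0.139. NANOG, a core factor of the undifferentiated state, had 2 linked regions with 13.0 and 16.5 CPM at day 3 and 8.50 and 9.07 at day 4, a log2 fold change of -0.72 ± 0.18. Without WT day 3 replicate b the adjusted p was 0.196 for NANOG and 0.25 for ZFP42, and without WT day 4 replicate b it was 0.289 for OTX2. POU5F1, which encodes OCT4, had 24.4 and 29.2 CPM and then 26.2 and 29.9, a change of 0.08 ± 0.12 with overlapping groups. SOX2 gave -0.15 ± 0.07 and did not pass. Among 28 amnion and trophoblast genes, TFAP2C and VGLL3 were among those called lower, while GATA3, TFAP2A and CDX2 ranged from -0.19 to -0.11 and did not pass. The TFAP2C call was lost without WT day 3 replicate b (adjusted p = 0.231).

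**Figure D1:**
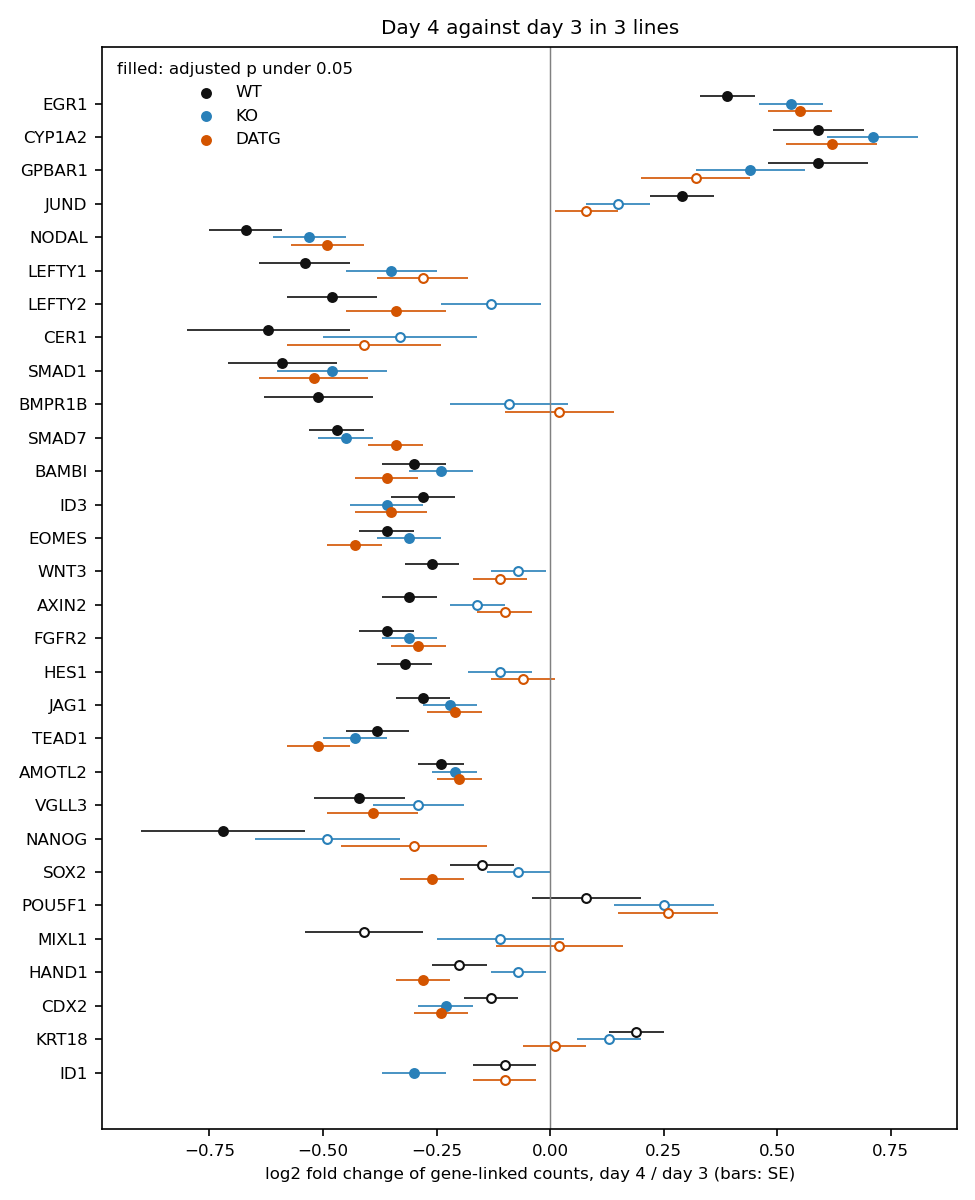
Log2 fold change of gene-linked counts from day 3 to day 4 (x axis) for 30 genes (y axis) in the WT, KO and DATG lines. Points are estimates, bars are standard errors, and filled points have an adjusted p under 0.05. NODAL, SMAD1, SMAD7, EOMES, FGFR2 and TEAD1 lie to the left of 0 in all 3 lines with filled points, and EGR1 and CYP1A2 lie to the right.

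Some rises formed runs of neighbouring regions at a few genes, which were picked out after their values were seen. Of 1327 genes with a called region, 13 had 3 or more. In 4 of these 13 every called region rose, and in 6 every called region fell. EGR1, transcribed within minutes of growth factor or serum stimulation, had 8 of 16 regions higher, and all 16 estimates were positive. The strongest lies 1219 bp past the gene at chr5:138470522-138470722. It had 0.368 and 0.348 CPM at day 3, from 5 and 3 reads, and 3.86 and 2.96 CPM at day 4, from 24 and 19 reads. The log2 fold change was 3.18 ± 0.48 (adjusted p = 1.74e-05). At day 1 the same region held 2.12 and 2.04 CPM, so its day 1 level lay between those of day 3 and day 4. The 8 called regions lie 291 to 5481 bp from the start, and 5 of them lie past the 3′ end. All 8 were also called higher in KO and in DATG. The region over the start, which covers both printed CArG boxes, had 25.4 and 22.7 CPM at day 3 and 29.6 and 28.8 at day 4, a change of 0.27 ± 0.14 that did not pass. Over all linked regions EGR1 rose by 0.39 ± 0.06, and this call and that of the strongest region held with each library left out. With DESeq2 the call of the strongest region was lost, while that of the gene sum held.

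ACTB and ACTG1, which encode the cytoplasmic actins, showed the same layout. ACTB is transcribed toward lower coordinates and ends at 5527148 on chromosome 7, and the regions past that end are linked to LOC221946, a lncRNA annotated from 5513854 to 5525545. Of the 13 regions there 9 rose and all 13 estimates were positive, from 0.89 to 2.52. Of these 9, all were also called higher in KO and 8 in DATG. The region at chr7:5525733-5525933 had 3.46 and 3.24 CPM at day 3 and 9.17 and 8.56 at day 4, a log2 fold change of 1.39 ± 0.23. At day 1 it held 7.76 and 7.43 CPM. ACTB itself had 22 linked regions, none of them called. For ACTG1, 4 of 9 regions rose, all of them past the 3′ end at 3648 to 5299 bp from the start. The strongest of these had 1.03 and 1.51 CPM at day 3 and 4.99 and 4.36 at day 4, a change of 1.92 ± 0.34. The region over the ACTG1 start stood at 16.9 and 17.4 CPM and then 18.2 and 20.7 and did not pass. Actin genes have many processed pseudogenes, and how reads with several matches were placed is not given in the sources used here.

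**Figure D2:**
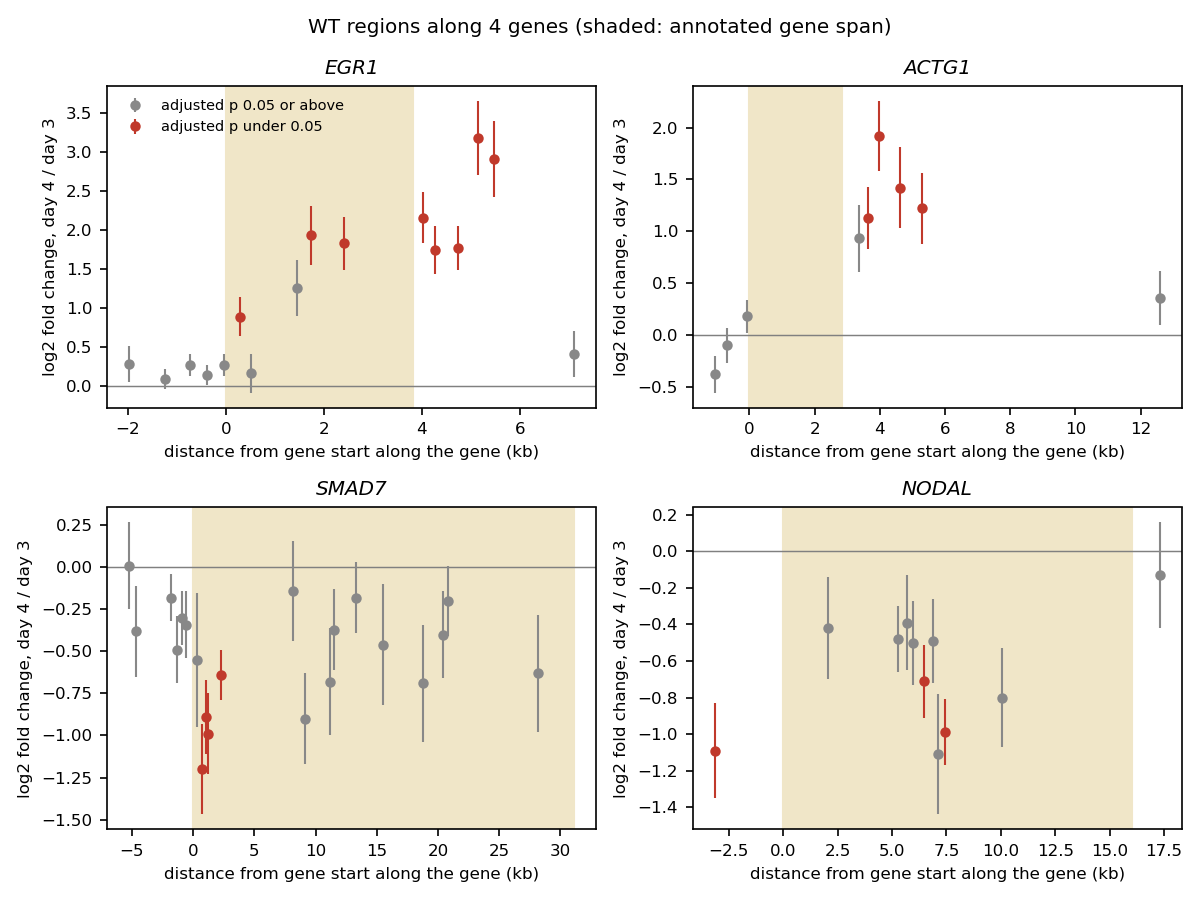
Log2 fold change from day 3 to day 4 in WT (y axis, bars are standard errors) for every region linked to EGR1, ACTG1, SMAD7 and NODAL, by distance in kb from the outermost annotated start along the gene (x axis). Red points have an adjusted p under 0.05 and the shaded band is the annotated gene. The called EGR1 and ACTG1 regions lie in the gene or past its end, while those of SMAD7 gather just inside the start.

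The position past gene ends was then counted over all protein-coding genes whose strand the promoter table gives (15843 genes), a count chosen after the EGR1 and actin values were seen. Of the regions within 5 kb past a 3′ end, 6464 lay over 1 kb from the outermost start of any of these genes. Of these 6464, 61 rose (0.944%) and 22 fell (0.34%). Starts of other genes, such as lncRNAs, and alternative starts were not left out. In the last 5 kb before a 3′ end, 52 of 5819 regions rose (0.894%) and 26 fell (0.447%). Within 1 kb of a start the balance was the other way, with 38 rising (0.141%) and 118 falling (0.437%) of 26998. Away from both, 509 of 96798 rose (0.526%) and 773 fell (0.799%). The 61 regions past 3′ ends belonged to 51 genes. They included EGR1 with 5, ACTG1 with 4, and H3-3B (a histone variant gene), CYP1A2 and MRPS2 with 2 each. The rest had 1 each, among them the glycolysis genes GAPDH and ENO1, and also TSPO2, SIGLEC15, PGLYRP3 and KCNA10. The other lines have separate libraries but share the days. At the same 6464 regions KO gave 102 higher (1.58%) against 35 lower (0.541%), and DATG gave 89 (1.38%) against 34 (0.526%). Of all regions with a distance, 0.624% were called higher and 1.13% lower in KO, and 0.597% and 0.87% in DATG. Within 1 kb of a start, 118 were higher and 277 lower in KO, whereas DATG had 175 higher and 116 lower, the reverse of the balance in WT. Of the 61 WT regions, 16 were called higher in KO, 19 in DATG and 14 in both. These counts include the 5 EGR1 and 4 ACTG1 regions that prompted the count, all of them called higher in both lines. From day 1 to day 2 in WT, 190 of the 6464 regions rose (2.94%) and 582 fell (9.0%).

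**Figure D3:**
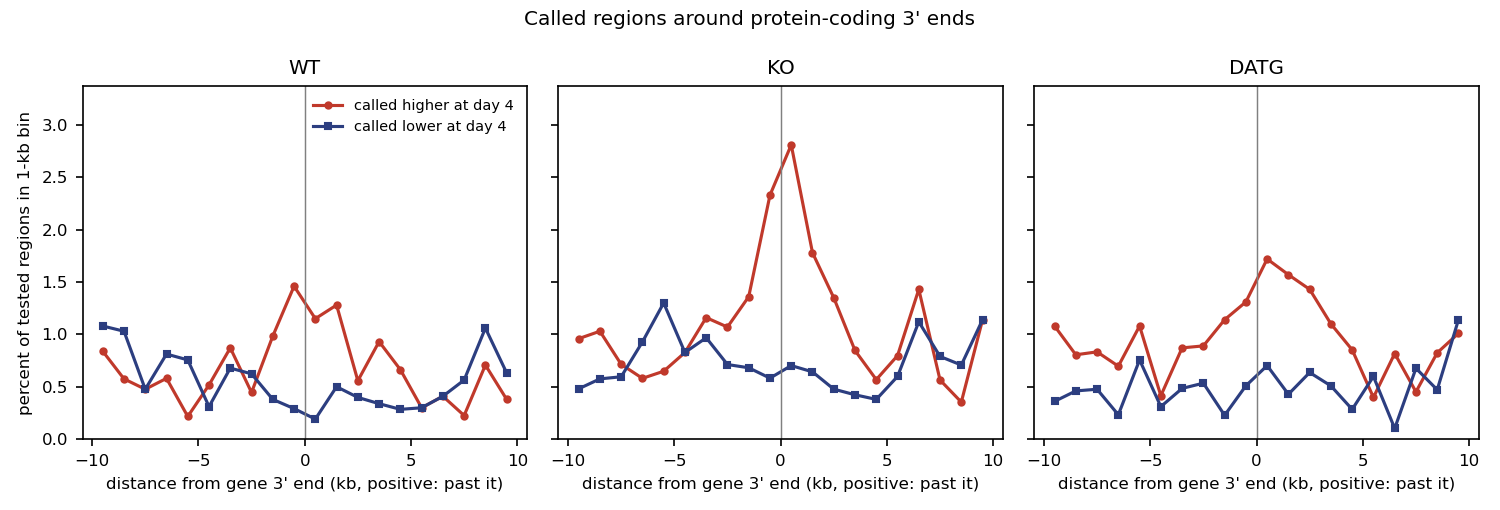
Percent of tested regions called higher (red) or lower (blue) at day 4, in WT, KO and DATG. Bins of 1 kb give the distance from the nearest protein-coding 3′ end (x axis, positive values past the end). Genes are those with a strand in the promoter table, and regions within 1 kb of their outermost starts are left out. In WT the share called higher is 1.46% in the last 1 kb before the end and 1.28% between 1 and 2 kb past it.

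PARP16 was the fourth gene at which every called region rose. The largest rise among named regions of at least median level lies 17757 bp outside PARP16, an enzyme of the endoplasmic reticulum that transfers ADP-ribose, at chr15:65304640-65304840. It had 2.28 and 2.43 CPM at day 3 and 7.89 and 7.16 at day 4, a log2 fold change of 1.68 ± 0.26, and 2 more of the 15 regions linked to PARP16 rose, by 1.21 ± 0.24 and 1.17 ± 0.27. A region within ARMH1 rose by 1.26 ± 0.22, from 4.49 and 3.48 CPM to 11.1 and 8.56. Single regions near SPECC1L, NOL4L, RAC2, FZD2 (a WNT receptor), RBPMS, TMEM107 and QTMAN rose by 1.06 to 1.22. The largest PARP16 rise and the ACTB region kept their calls with each library left out, and ARMH1 (adjusted p = 0.115 without WT day 4 replicate a) and the other 7 did not. CDKN1A, a cell cycle inhibitor that p53 induces, rose at its only linked region from 2.28 and 3.01 CPM to 6.76 and 5.14, the one call among 18 p53 targets. That call was lost without WT day 4 replicate a (adjusted p = 0.281).

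Among genes of at least median level that were named for the size of their change, gene sums rose by at most 0.59. CYP1A2, a cytochrome that metabolises drugs in liver, led with 37.9 and 36.2 CPM at day 3 and 54.2 and 57.9 at day 4 over 4 regions, a log2 fold change of 0.59 ± 0.10 (adjusted p = 0.000123). Its 2 called regions lie past the 3′ end. GPBAR1 changed equally, by 0.59 ± 0.11, from 25.3 and 25.7 CPM to 43.3 and 33.3. WFIKKN1, EIF3G, NBPF14, TPI1, COLQ and OSGIN1 rose by 0.45 to 0.55. The calls of these 6 were each lost without at least 1 library, for COLQ with an adjusted p of 0.385 without WT day 4 replicate a. Among them EIF3G encodes a translation initiation factor and TPI1 a glycolysis enzyme. NBPF14 belongs to a family of near-identical copies, so its reads may be split and its value is uncertain. Of 18 AP-1 and immediate early genes, EGR1 and JUND rose and KLF6 fell, with changes of 0.39, 0.29 and -0.37. CYP1A2 kept its call with each library left out, while GPBAR1 (adjusted p = 0.177) and JUND (0.189) lost theirs without WT day 4 replicate a, as did KLF6 without WT day 3 replicate a (0.0653).

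**Figure D4:**
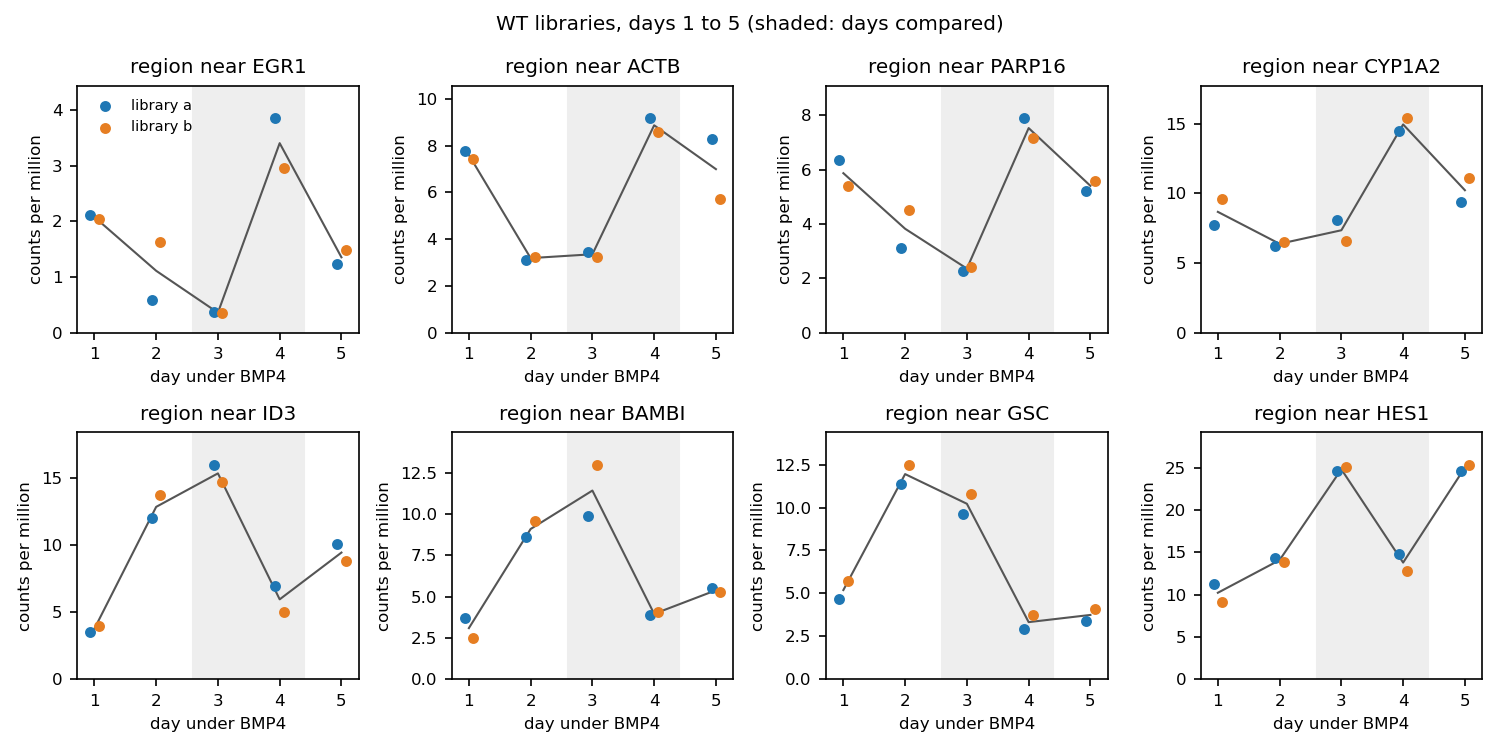
CPM (y axis) in each WT library on days 1 to 5 under BMP4 (x axis) at the strongest called region near 8 genes, with library a in blue, library b in orange and a line through their mean. Day 3 and day 4, shaded, do not overlap in any panel, and the EGR1, ACTB and PARP16 regions were higher at day 1 than at day 3.

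Among named regions of at least median level that fell, the largest change lies within GNAL, a G protein subunit gene, at chr18:11714344-11714544. It went from 9.79 and 11.1 CPM to 2.58 and 4.05, a log2 fold change of -1.64 ± 0.23. A region within CCDC88C, which encodes a Dishevelled-binding protein of WNT signalling, went from 10.7 and 11.7 CPM to 3.22 and 4.51, a change of -1.52 ± 0.24. A region 4270 bp outside HOXB13 fell by 1.35 ± 0.21, from 11.8 and 13.6 CPM to 4.51 and 5.29. The nearest annotated gene end there belongs to another gene. The 2 regions linked to HOXB13 itself changed by -0.08 and -0.05 and did not pass. Day 3 and day 4 did not overlap at the regions in GNAL and CCDC88C and the one outside HOXB13, and each kept its call with any library left out. Regions near IFNA2, NFE2, HAUS3 and OCM2 fell by 1.25 to 1.37, calls that were lost without WT day 4 replicate a (adjusted p from 0.0653 to 0.164). Of gene sums, ABCC4, a transporter of organic anions, fell by 0.58 ± 0.10, ACSS1, a mitochondrial acetyl-CoA synthetase, by 0.57 ± 0.11, and ME1, a malic enzyme, by 0.53 ± 0.10. ACSS1 kept its call with each library left out, and the other two did not (adjusted p = 0.074 without WT day 4 replicate a for ABCC4 and 0.0635 without WT day 4 replicate b for ME1).

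The remaining lists had from 0 to 3 called genes each. None of 8 simple epithelial keratin genes passed, with KRT18 at 0.19 ± 0.06 and KRT19 at 0.14 ± 0.07. None of 26 mesenchymal and matrix genes and none of 18 endothelial and blood genes passed. Of 42 HOX and CDX genes only HOXD8 fell, by 0.61 ± 0.17, although the list median was -0.149 and only 4 of the 42 were above 0. Of 15 endoderm genes 3 fell, namely CER1 (also in the Nodal list), FOXA2 (also in the streak list) and GATA4. EMX2 and OTX2 fell of 30 neuroectoderm genes, PAX7 and SOX9 of 20 neural crest and placode genes, and DHRS3 of 16 retinoic acid genes. None of 7 naive state genes and none of 3 apelin pathway genes passed. In the lateral plate and cardiac list, SMARCD3 rose by 0.34 ± 0.10 and GATA4 fell by 0.36 ± 0.07, with 22 members that did not pass, HAND1 (-0.20 ± 0.06) among them. APLNR, the apelin receptor, was at 70.0 and 55.5 CPM and then 67.8 and 60.5, a change of 0.01 ± 0.15. Of 41 ribosomal protein genes, taken as a control, 1 rose (RPL3, by 0.26 ± 0.07) and none fell, with a median of 0.082. Over all 26 lists, 479 distinct genes were measured, of which 5 rose (1.04%) and 34 fell (7.1%), with a median of -0.065. Among all genes 0.949% rose and 2.11% fell. Called list genes summed from 1 region (CER1) to 43 (GATA4), and whether this number favoured a call was not tested. No list median changed sign under 3 other ways of scaling the libraries. The lists were drawn up with earlier results of these data known, so their counts are a description. The calls of HOXD8, SMARCD3, GATA4 and RPL3 were each lost without WT day 4 replicate b or a, with adjusted p-values of 0.296, 0.668, 0.12 and 0.256. Those of EMX2, PAX7, SOX9 and DHRS3 were also lost without at least 1 library, at 0.18 to 0.239.

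Few called regions lay at promoters. Of all tested regions 10.6% overlapped a RefSeq promoter window, against 3.67% of those that rose and 3.74% of those that fell. On named promoters, the GPBAR1 region at chr2:218259196-218259396 had 7.36 and 5.45 CPM at day 3 and 16.9 and 11.4 at day 4, a log2 fold change of 1.10 ± 0.20. TMEM106A rose by 0.78 ± 0.19, from 6.55 and 8.34 CPM to 12.1 and 12.9. PHYKPL, RIN1 and ASIC1 rose by 0.69 to 0.82. C1orf87 fell by 1.26 ± 0.28, from 5.96 and 7.18 CPM to 1.93 and 3.42, and PRKD1, TBX22, FNDC3B and EIF4G1 fell by 0.88 to 1.09. None of these promoter calls held with every library left out, and the adjusted p for GPBAR1 was 0.217 without WT day 4 replicate a. Across 13425 promoters with a tested region, the AP-1 letters were in 4.24%, against 4 of the 25 on a risen region (16%) and 0 of the 37 on a fallen region. The TEAD letters (GGAATG) were in 10.8% of all, 0 of the 25 and 6 of the 37. GC boxes were in 73.1% of all, 60% and 73%. The CAAT box was in 33.9% of all, 3 of the 25 and 12 of the 37. Base composition also differed, with a median GC content of 66.7% over all these promoters, 62.7% for the 25 and 71.0% for the 37. A match to letters is not a bound site. Each motif was read on both strands, and the CArG box was in 1.14% of 27305 promoters of any gene.

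Called regions were often absent from the region sets of the other treatments. Of all BMP4 regions 65.3% matched a day 0 region and 80.8% a SMADi region. Of regions that rose 33.1% and 52.2% did, and 45.5% matched neither, against 15.6% overall. Of regions that fell, 54.4% and 74.7% did, and 22.2% matched neither. Each table was called separately, so a missing match says that no region was listed there. Regions that rose also had a lower level, with a median log2 CPM of 1.83 against 2.27 over all tested regions and 2.70 for those that fell. Whether level accounts for the missing matches was not tested.

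Regions that fell had often opened early. From day 1 to day 2, a comparison with no library in common, 428 of the 988 (43.3%) had risen and 5 had fallen, against 6.29% and 4.02% of all tested regions. Their median level over days 1 to 5 was 5.55, 8.11, 8.75, 4.45 and 5.79 CPM, where days 3 and 4 chose the members. Of the 682 regions that rose, 93 (13.6%) had fallen from day 1 to day 2 and 26 (3.81%) had risen. At genes, SMAD7 had risen by 0.77 from day 1 to day 2, ID3 by 0.58, FGFR2 by 0.55, AMOTL2 by 0.52 and HES1 by 0.50. Each of these had an adjusted p under 0.05, where 11.6% of all genes rose and 8.53% fell. Other genes that fell from day 3 to day 4 had no such rise. LEFTY2 was called lower from day 1 to day 2, at -0.34. NODAL (0.20), LEFTY1 (-0.05), NANOG (-0.10), ZFP42 (-0.10) and DLL1 (-0.04) gave no call there. From day 4 to day 5, which shares the day 4 libraries, SMAD7 was higher by 0.35, HES1 by 0.43 and BAMBI by 0.34 (4.36% of all genes were called higher there), while NODAL, at -0.02, gave no call. For scale, 14656 regions (10.3%) were called from day 1 to day 2, 3969 (2.79%) from day 2 to day 3 and 4336 (3.05%) from day 4 to day 5. The step from day 3 to day 4, with 1670, had the fewest region calls at this threshold. By gene sums it did not, with 924 genes called against 921 from day 2 to day 3.

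The same step in the mutant lines used other libraries. No batch is named in the labels, so one shared by all libraries of a day cannot be told apart from the day. From day 3 to day 4, KO had 871 regions higher (0.613%) and 1623 lower (1.14%), 1.76% in all, and DATG had 843 higher (0.593%) and 1244 lower (0.876%), 1.47% in all. Of the 682 regions that rose in WT, 93.3% were also positive in KO and 94.1% in DATG, against 63.3% and 65.5% of all tested regions having the sign of WT. Of these 682, 96 were called higher in KO, 111 in DATG and 60 in both. Of the 988 that fell, 265 were called lower in KO, 222 in DATG and 125 in both. No WT call was called the other way in either line. EGR1 rose by 0.53 in KO and 0.55 in DATG, NODAL fell by 0.53 and 0.49, and SMAD7 fell by 0.45 and 0.34, all with an adjusted p under 0.05. Over all genes 1.89% rose and 2.41% fell in KO, and 2.22% and 3.22% in DATG. The ID3 region fell by 1.37 in KO and 1.28 in DATG, and the GSC region by 1.08 and 1.83. BMPR1B, at -0.51 in WT, was at -0.09 in KO and 0.02 in DATG without a call. The difference between the steps was tested as an interaction over every region and called none, for KO or for DATG, by edgeR or DESeq2. At an unadjusted p under 0.05, edgeR gave 7292 regions for KO and 5924 for DATG, and DESeq2 gave 2138 and 1430. The smallest adjusted p was 0.75 for KO and 0.446 for DATG by edgeR. Of 30231 gene sums none was called either, with 1551 and 1199 at an unadjusted p under 0.05. How large a difference this test could find was not measured.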

How the data were processed

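Chromatin accessibility was counted in 30 libraries of H1 cells under BMP4 (3 lines, days 1 to 5, 2 libraries each). The deposited values are counts, whole numbers of reads per 201-bp region on GRCh38 with no normalization; the authors' processing used MACS2, per the submitters' processing notes. The sources used here do not give the aligner, the duplicate handling or any transposase shift. Regions kept by filterByExpr (142083 of 142087) were tested with edgeR 4.0.16 (R 4.3.3): TMM scaling, robust quasi-likelihood F test, 1 mean per line and day over all 30 libraries, Benjamini-Hochberg adjustment and calls under 0.05. The standard error (SE) is the absolute log2 fold change over the root of F, and CPM uses TMM-scaled totals. DESeq2 1.42.0, other scalings, no filter, fewer libraries in the fit, thinning, a replicate block and leaving out each library were the alternatives. Figures and tables used Python with pandas and matplotlib.

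Genes were the 38340 protein-coding and lncRNA genes of RefSeq on GRCh38.p14, and a region was linked to the gene with the nearest annotated end within 50 kb. Strand and starts came from the RefSeq promoter table, which matched 15843 protein-coding genes. Named regions were, in each direction, the 12 called regions of largest change at or above the median level, and the 5 largest on promoters, 1 per gene. Named genes were the 10 largest called changes of protein-coding genes in each direction at or above the median level, up to 4 called members per list and direction, and 22 anchor genes; a few of these are not reported here. All 496 distinct genes of the 26 lists had a symbol match. Members, lists and rules were chosen with earlier results of these data known. Replicates differed by more than sampling noise (chi-square per degree of freedom 1.19 at WT day 3 and 1.08 at WT day 4) and were counted separately. The median biological coefficient of variation was 0.0706 for regions. The test was checked on simulated counts with known changes and made 3 false calls on 20000 regions. These counts were drawn with the spread that the fit itself had estimated, so the check cannot show whether that spread is too small.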

Additional observations from a re-analysis of the deposited data

How the results depend on the processing

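No named value changed direction with its call under any alternative run. The counts did move. Against 682 regions higher and 988 lower, DESeq2 called 8 and 28, the 10 WT libraries alone 1304 and 1580, the 4 compared libraries alone 1803 and 2277, and libraries thinned to the shallowest 360 and 600. Against 287 genes higher and 637 lower, the same settings gave 37 and 150 (DESeq2), 546 and 1004 (10 WT libraries), 899 and 1423 (4 libraries), and 412 lower after thinning. Linking regions only within 1 kb of a gene end gave 81 and 143 genes. Leaving out 1 library gave 39 to 238 regions higher, 74 to 310 lower, 29 to 112 genes higher and 108 to 279 lower. The regions higher and lower were 238 and 310 without WT day 3 replicate a, 108 and 267 without WT day 3 replicate b, 39 and 74 without WT day 4 replicate a, and 200 and 131 without WT day 4 replicate b. These fits leave 1 day with 1 library, which is assumed to vary like the other groups. The share of calls that were lower, 59.2%, was 77.8% with DESeq2, 71.2% without WT day 3 replicate b and 39.6% without WT day 4 replicate b. Other scalings and no filter on low counts kept each region count within 1.5 times. The differences between lines had no call under any setting.

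The letters a and b only name libraries. With the letter as a replicate block 839 regions were higher and 1178 lower, and 350 and 742 genes, and the deviations of same-lettered libraries correlated at 0.0374 in WT, -0.0628 in KO and -0.0997 in DATG. Of 65 named called regions 10 were called under every setting (among them those near PARP16, ACTB, GNAL, GSC, CCDC88C, BAMBI, ID3, HOXB13 and HES1), and of 55 named called genes 6 were (among them CYP1A2, NODAL, SMAD7, TEAD1 and EGR1). The cause of the other losses was not tested. At the depth of these libraries, changes of 0.5 on the log2 scale were mostly not detectable.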

Other observations

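At 2 mesoderm genes the day 4 libraries were higher at one region and lower at another, values picked out after they were seen. HAND1, a cardiac and extraembryonic mesoderm factor, had 37 linked regions. The one at chr5:154526326-154526526, centred at -48199 bp from the start, had 3.31 and 2.43 CPM at day 3 and 7.24 and 5.76 at day 4, a log2 fold change of 1.13 ± 0.26. The one at chr5:154499174-154499374, centred at -21047 bp from the start, had 4.71 and 5.68 CPM and then 1.93 and 1.87, a change of -1.42 ± 0.33. The first of these calls was lost without WT day 4 replicate a (adjusted p = 0.267), and neither region was called in KO or DATG. GATA4, a factor of heart and endoderm, had 3 regions lower (-0.87 to -0.92) and 1 higher (0.91 ± 0.25) among 43. The higher one passed narrowly (adjusted p = 0.0475). The lower one of smallest p lost its call without WT day 4 replicate a, where its change was -0.86. None of the 4 was called in the same direction in KO or DATG. The higher one was at 0.52 in KO and 0.50 in DATG. The 3 lower ones were at -0.53 to 0.22 in KO and -0.56 to -0.15 in DATG. The gene sums, -0.20 for HAND1 and -0.36 for GATA4, do not show these opposed regions.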
